A study of Vitis vinifera with 23 samples.

Results

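In ripe Sauvignon blanc berries, 136 of the 29970 genes had lower transcript levels after leaf removal, without having been at 0.6 times the control level or less at any of the 3 earlier stages. They were chosen by their group means of FPKM (fragment counts scaled to transcript length and to the mapped fragments of the sample, a level per length). At EL38 both control samples had to be at 3 FPKM or more and above every exposed sample, with an exposed mean of at most 0.4 times the control mean. At EL31, EL33 and EL34 the exposed mean had to be above 0.6 times the control mean. Altogether 225 genes met the condition at EL38, of which 87 did not meet the condition at an earlier stage and 2 that met all conditions were left out by name. Of the 87, 24 had a control mean of 0 at an earlier stage. The exposure contrast at all 4 stages therefore chose these 136 genes, and their exposed against control values are given below as a description, with no test.

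The berries came from 1 model vineyard of Vitis vinifera cv. Sauvignon blanc. In exposed panels the leaves and lateral shoots of the bunch zone were removed before the first sampling, and in control panels the canopy was left in place. Whole berries without seeds were sampled from exposed and control panels at EL31 and EL33 (green berries), EL34 (véraison, the onset of ripening) and EL38 (ripe berries at harvest), with 3 exposed and 3 control samples at each stage before EL38. At EL38 there were 3 exposed and 2 control samples, since the authors left out the remaining control as an outlier. Within a stage each replicate was a separate panel of vines. For a given treatment and replicate, the sample numbers in the labels ended in the same digits at every stage. The same panels may therefore have been sampled again from stage to stage, which the labels do not state.

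Pathogenesis-related (PR) proteins are small, mostly secreted proteins of plant defence, among them glucanases and chitinases that cut fungal cell walls and the thaumatin family, which includes osmotin. In grape berries several of them accumulate during ripening without infection, and thaumatin-like proteins and chitinases are known as the proteins that cause haze in white wine. Softening of the berry, which starts at véraison, involves expansins, which loosen the cell wall, and enzymes that remodel pectin and xyloglucan.

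Relative sequencing depth, estimated from the smallest FPKM values, was 0.612 to 2.294 over the 23 samples (mean 1), 0.768 to 0.852 in exposed and 0.701 to 0.791 in control samples at EL38. At EL38 exposed sample 1 and both controls carried sample numbers in the fifties, and exposed samples 2 and 3 numbers in the sixties. The labels do not say what the numbers stand for. Of 14 expansin and polygalacturonase genes taken as markers of ripening flesh, 11 had a lower exposed than control mean at EL38. In 9 of the 14 every exposed sample was below every control, and in 3 every exposed sample was above every control. The summed level of the 14 was 3320 to 5178 FPKM in exposed and 8794 to 9361 FPKM in control samples. None of the 14 was at 0 in all 5 samples. The expansin EXPA8 is 1 of the 14 and also 1 of the 136 genes, and without it the sums were 2987 to 4510 FPKM in exposed and 7205 to 7931 FPKM in control samples. Of 13 seed storage genes, 5 averaged below 0.1 FPKM at EL38 and 4 had a lower exposed than control mean. In 1 of the 13 every exposed sample was below every control, and in 3 every exposed sample was above every control. Their summed level was 210.0 to 252.8 FPKM in exposed and 256.2 to 284.9 FPKM in control samples. Of 2 green tissue genes, 1 had a lower exposed than control mean at EL38, with every exposed sample below every control. The sum of these 2 was 467.9 to 641.9 FPKM in exposed and 418.8 to 675.6 FPKM in control samples. The part of these markers, of depth and of the sample numbers in the lower levels at EL38 was not tested. In whole berries, fewer cells of a type and less RNA per cell cannot be told apart.

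The 136 genes covered a wide range of abundance in ripe control berries, with means of 3.29 to 2816 FPKM and a median of 19.9 FPKM. In 22 genes the control mean was at least 100 FPKM and in 55 it was under 10 FPKM. The exposed mean was 0.323 times the control mean in the median gene, and at most 0.25 times in 25 genes. The 3 exposed samples were not equally low. Relative to the mean of the controls, the median gene was at 0.427 in exposed sample 1, 0.264 in exposed sample 2 and 0.220 in exposed sample 3. Exposed sample 1 was the highest of the 3 exposed samples in 94 genes (69.1%), against 41.8% of all 20205 genes tested, and it was at most 0.4 times the control mean in 56 genes, against 117 genes for exposed sample 2 and 120 for exposed sample 3. With exposed sample 1 alone against both controls at EL38, all numbered in the fifties, 113 genes met the rule and 56 of them were among the 136. The conditions at the earlier stages still used all samples there. Without exposed sample 1 the rule gave 210 genes, which included 131 of the 136. The controls lay within 2-fold of each other in 127 genes.

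**Figure D1:**
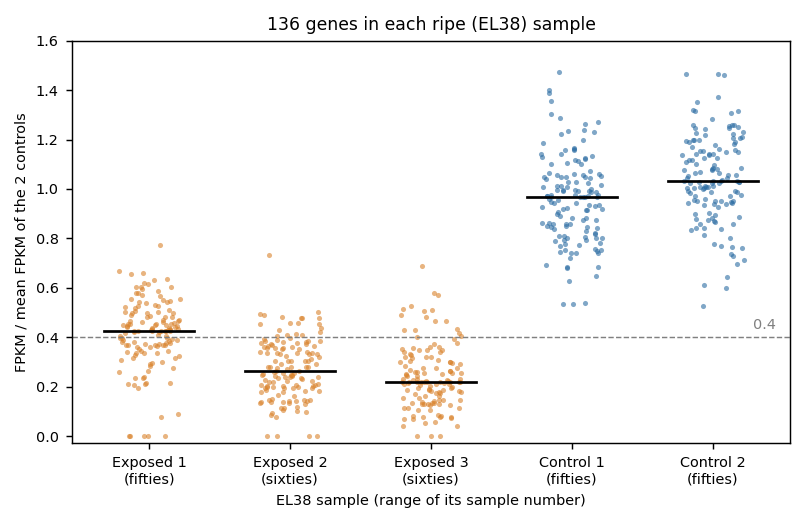
Level of each of the 136 genes in each EL38 sample (x axis, exposed samples at the left in orange, controls at the right in blue), as FPKM divided by the mean FPKM of the 2 controls (y axis). Black bars are medians over genes (0.427, 0.264 and 0.220 in exposed samples 1 to 3, 0.966 and 1.03 in controls 1 and 2) and the dashed line is the ratio of 0.4 that the rule set for the exposed mean.

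The PR proteins were the largest annotated group, with 10 of the 136 genes. An annotation was at hand for 47 of the 136 and for 4018 of all genes, from the study's tables of genes that it had mostly selected on these same samples, so counts per group are not independent evidence. These tables held 54 PR genes. Besides the 10, another 8 met the condition at EL38 but were also lower, or had a mean of 0 in both groups, at an earlier stage. In ripe berries the summed level of the 10 genes was 1339, 641.4 and 982.4 FPKM in the exposed samples and 3912 and 4876 FPKM in the controls. PR-4 (Vv14s0081g00030), annotated as a chitinase, was the most abundant of the 136 genes. It was at 826.2, 402.3 and 613.1 FPKM in exposed and 2399 and 3232 FPKM in control ripe berries, so the highest exposed sample was well under the lowest control. At véraison the groups overlapped, with 1088, 614 and 775 FPKM in exposed and 411, 829 and 595 FPKM in control berries.

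Osmotin (Vv02s0025g04250), a thaumatin family protein with antifungal activity, was at 207, 74.5 and 72.1 FPKM in exposed and 559 and 549 FPKM in control berries at EL38. At EL34 it had been at 22.2, 10.5 and 16.3 FPKM in exposed and 7.73, 5.58 and 10.4 FPKM in control berries, so that the lowest exposed value was just above the highest control value at véraison and the order was the opposite in ripe berries. The thaumatin Vv02s0025g04270, at a neighbouring locus, was at 51.0, 19.2 and 15.7 FPKM in exposed and 146 and 130 FPKM in control ripe berries. A beta-1,3-glucanase (Vv08s0007g06060), an enzyme that cuts fungal wall glucans, was at 117, 38.5 and 23.4 FPKM in exposed and 284 and 258 FPKM in control ripe berries. In each of these 3 genes exposed sample 1 was more than 2-fold above exposed samples 2 and 3 and still below both controls. The germin Vv17s0000g05360 was much less abundant, at 3.94, 3.83 and 2.50 FPKM in exposed and 14.8 and 22.4 FPKM in control ripe berries, and averaged at most 1.13 FPKM in either group before EL38.

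A pair of neighbouring thaumatin genes differed from the others in time course. Vv04s0023g03550 was at 30.7, 29.5 and 17.4 FPKM in exposed and 105 and 84.9 FPKM in control ripe berries, and it had already been at 128, 110 and 93.8 FPKM in exposed and 104, 99.0 and 135 FPKM in control berries at véraison. Vv04s0023g03540 (thaumatin SCUTL1, named outside the fixed rule to complete the 10) was at 15.3, 17.7 and 9.84 FPKM in exposed and 52.4 and 47.6 FPKM in control ripe berries, against 34.2, 31.3 and 24.6 FPKM in exposed and 37.3, 36.3 and 44.4 FPKM in control berries at véraison. Control berries thus kept about the véraison level of both genes at harvest, while exposed berries were at 0.234 and 0.476 times theirs. Both belong to 1 gene family, and how the deposited FPKM share reads between similar genes is not known, so single values may be uncertain.

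The PR-10 genes, which encode small intracellular proteins, lay in a run of 4 neighbouring loci. Vv05s0077g01560 was at 44.1, 23.7 and 89.7 FPKM in exposed and 167 and 247 FPKM in control ripe berries, and Vv05s0077g01570 at 35.1, 19.3 and 73.8 FPKM in exposed and 117 and 184 FPKM in control ripe berries. Here exposed sample 3, not sample 1, was the highest of the exposed samples. The same held for Vv05s0077g01550, at 8.32, 13 and 64.8 FPKM in exposed and 67.7 and 121 FPKM in control ripe berries, where exposed sample 3 came close to the lower control. All 3 genes averaged at most 2.77 FPKM in either group before EL38. The neighbour Vv05s0077g01580, which has no annotation here, was the second most abundant of the 136 genes, at 986, 643 and 874 FPKM in exposed and 2039 and 2392 FPKM in control ripe berries. Unlike the other 3 it was abundant throughout, at 69.9 FPKM or more in every sample.

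**Figure D2:**
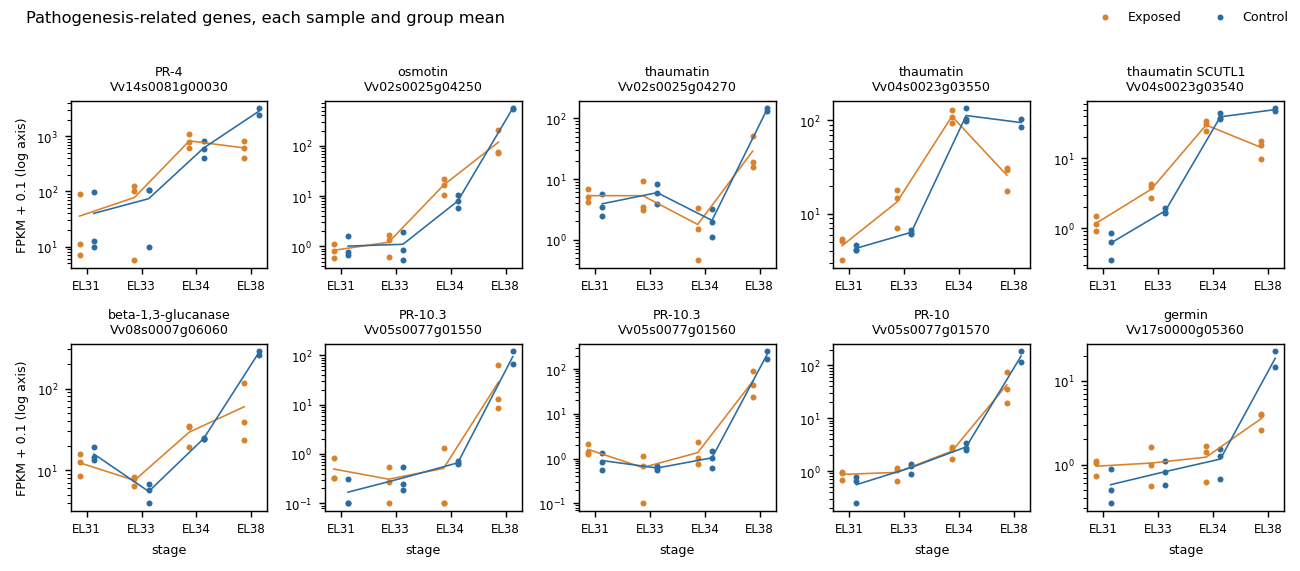
FPKM plus 0.1 (log y axis) of the 10 PR genes at EL31, EL33, EL34 and EL38 (x axis). Points are single samples and lines join group means, exposed in orange at the left of each stage and control in blue at the right. At EL38 every exposed point lies below every control point, as the rule requires, and in osmotin exposed points lie above control points at EL34 (22.2, 10.5 and 16.3 against 7.73, 5.58 and 10.4 FPKM).

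The cell wall list held 59 annotated genes, of which 7 met the condition at EL38 and 4 were among the 136. In these 4, control levels fell or changed less than 2-fold between véraison and harvest. EXPA8 (Vv13s0067g02930), an expansin, was at 667, 618 and 334 FPKM in exposed and 1589 and 1431 FPKM in control ripe berries, both far below the 3305 to 4402 FPKM of exposed and 4213 to 4798 FPKM of control berries at véraison. A pectate lyase (Vv13s0019g04910), which cuts pectin, was at 3.97, 4.26 and 2.80 FPKM in exposed and 12.4 and 12.6 FPKM in control ripe berries. The galacturonosyltransferase Vv18s0001g11860, of a family that makes pectin, was at 0.754, 0.892 and 0.30 FPKM in exposed and 4.64 and 3.18 FPKM in control ripe berries. In these 3 genes the control mean at EL38 was at most 0.5 times that at EL34. The xyloglucan endotransglucosylase XTH3 (Vv11s0052g01190), which cuts and rejoins xyloglucan chains, was the exception, at 2.95, 1.08 and 1.25 FPKM in exposed and 7.33 and 4.29 FPKM in control ripe berries, with a control mean above that of véraison.

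**Figure D3:**
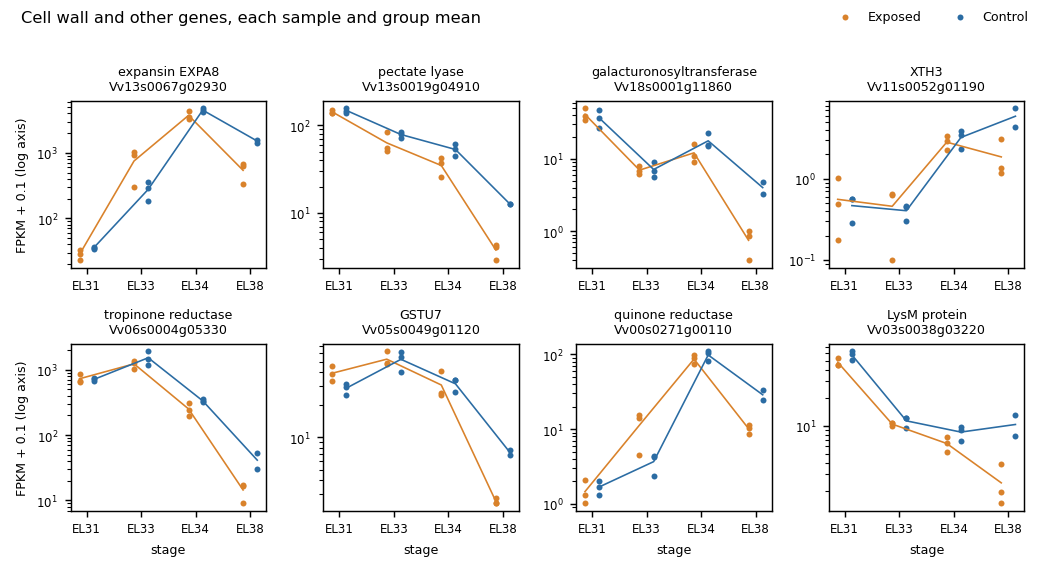
FPKM plus 0.1 (log y axis) of the 4 cell wall genes and 4 further genes at EL31, EL33, EL34 and EL38 (x axis). Points are single samples and lines join group means, exposed in orange at the left of each stage and control in blue at the right. Both groups of EXPA8, pectate lyase, galacturonosyltransferase, tropinone reductase, GSTU7 and quinone reductase were lower at EL38 than at EL34, with exposed berries the lower of the groups.

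Dirigent proteins, which direct the coupling of phenolic radicals, gave 2 neighbouring genes of the 22 in the list of phenolic and terpenoid defence. Vv06s0004g01000 was at 9.57, 2.78 and 1.95 FPKM in exposed and 21 and 34.8 FPKM in control ripe berries, 0.171 times as a ratio of means. Vv06s0004g01010 was at 10.6, 3.47 and 16 FPKM in exposed and 28.7 and 45.8 FPKM in control ripe berries. Both were under 6 FPKM in every sample before EL38.

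The list of redox, copper and detoxification genes had 67 genes and 4 of the 136. The dicyanin Vv11s0016g05540, a blue copper protein, was at 21.2, 5.14 and 7.62 FPKM in exposed and 49.2 and 49.7 FPKM in control ripe berries, after levels under 1 FPKM in every earlier sample. Another dicyanin (Vv09s0002g06890) was at 4.24, 0.832 and 1.52 FPKM in exposed and 11.6 and 8.31 FPKM in control ripe berries. The cytochrome P450 CYP81D2 (Vv00s0790g00020) was at 3.11, 1.66 and 1.26 FPKM in exposed and 5.80 and 5.65 FPKM in control ripe berries. In these 3 genes the controls were higher at EL38 than at any earlier stage. GSTU7 (Vv05s0049g01120), a glutathione S-transferase that conjugates glutathione to reactive compounds, went the other way over time, at 2.36, 2.66 and 2.37 FPKM in exposed and 6.78 and 7.52 FPKM in control ripe berries after 24.7 to 41.0 FPKM in exposed and 26.0 to 33.9 FPKM in control berries at véraison.

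Of 196 receptor and resistance genes, 7 met the condition at EL38 and 2 were among the 136. A LysM domain protein (Vv03s0038g03220), of a domain that binds chitin and related sugars, was at 3.80, 1.84 and 1.37 FPKM in exposed and 7.63 and 12.8 FPKM in control ripe berries. A leucine-rich repeat protein kinase (Vv16s0050g01900) was at 2.17, 0.940 and 0.255 FPKM in exposed and 4.93 and 4.48 FPKM in control ripe berries. The lists of salicylic acid linked regulators (15 genes), jasmonate and ethylene genes (38) and transporters (112) gave none of the 136. Of the 15 salicylic acid linked genes, 4 met the condition at EL38. In 3 of these, all annotated as WRKY transcription factors, the exposed mean was already at most 0.429 times the control mean at EL34, and the remaining one is among the genes left out by name.

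Further annotated genes, chosen here after their values were seen, fell outside these lists. NtPRp27 (Vv03s0091g00160), a secreted protein of a PR family, was at 208, 73.5 and 91.5 FPKM in exposed and 418 and 566 FPKM in control ripe berries, against means of 2.71 FPKM in exposed and 1.32 FPKM in control berries at véraison. Its exposed and control means at EL38 were thus 45.9 and 371 times those at EL34. The late increase was present in both and, as the rule requires, smaller in exposed berries. The polyphenol oxidases Vv00s0480g00030 and Vv00s0480g00040, a neighbouring pair of copper enzymes that oxidise phenols, averaged 53.8 and 27.9 FPKM in exposed and 214 and 80.3 FPKM in control ripe berries. A neighbouring pair annotated as protein disulfide isomerases, which form and rearrange disulfide bonds of secreted proteins, was at 0.307 times the control mean in either gene. Vv01s0127g00540 was at 123, 86.3 and 75.9 FPKM in exposed and 246 and 373 FPKM in control ripe berries, and Vv01s0127g00560 at 145, 103 and 64.2 FPKM in exposed and 272 and 405 FPKM in control ripe berries. A salicylic acid carboxyl methyltransferase (Vv04s0023g02280), which makes methyl salicylate, was low, at 2.57, 2.92 and 0.429 FPKM in exposed and 3.25 and 8.95 FPKM in control ripe berries, so that exposed sample 2 was close to control 1.

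The lowest ratios were in part those of genes with erratic values. Vv12s0028g01680 was listed at 0 in the 3 exposed samples and at 40.2 and 14.4 FPKM in the controls at EL38, but it was also listed at 0 in 3 samples of EL33 and EL34. Vv06s0061g01130 was listed at 0, 0 and 7.94 FPKM in exposed and 11.6 and 25.3 FPKM in control ripe berries and at 0 in 5 samples of the earlier stages. In all, 8 of the 136 genes had an exposed value of 0 at EL38. Other genes with low ratios were measured in every ripe sample. Vv06s0004g01990 was at 8.70, 3.89 and 8.85 FPKM in exposed and 52.8 and 28.3 FPKM in control ripe berries, and at no more than 2.13 FPKM in any earlier sample. Vv07s0005g02070 was at 46.8, 44.6 and 29.2 FPKM in exposed and 106 and 291 FPKM in control ripe berries, where the controls differed 2.74-fold. Neither has an annotation here.

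The ratio of 0.4 divided genes that lay close together. Just inside it were Vv03s0091g00490 (0.397), Vv01s0011g03440 (0.398) and Vv14s0128g00300 (0.3999). Just outside it were Vv06s0004g07770 (0.401), Vv12s0034g01340 (0.404) and the auxin-responsive gene SAUR9, Vv04s0023g03230 (0.405). Vv01s0011g03440 was abundant, at 322, 297 and 286 FPKM in exposed and 587 and 930 FPKM in control ripe berries.

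Before EL38 the genes lay on either side of equal levels, within what the rule allowed. The median ratio of exposed to control means was 1.04 at EL31, 1.06 at EL33 and 0.949 at EL34 over the genes with a value. Absence of a lower level early on was partly absence of transcript, since in 15 genes both group means were below 1 FPKM at all 3 earlier stages, and in 33 at 1 stage or more. In 66 genes both means were at least 3 FPKM at all 3 stages. With limma on log2(FPKM + 0.1) and Benjamini-Hochberg adjustment, 4.68% of all 20205 genes tested were called between exposed and control berries at EL31, 3.49% at EL33, 3.33% at EL34 and 4.79% at EL38. The calls of the 136 genes in these contrasts are not given, since the rule used the same values. All 136 genes passed the filter on low values because the rule set a minimum at EL38.

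At EL33 the exposed mean was at least 2 times the control mean in 22 of the 136 genes (4.88% of all genes), against 9 at EL31 (4.46%) and 13 at EL34 (5.08%). The 22 included EXPA8, both thaumatins of the neighbouring pair, and genes without annotation. EXPA8 was at 1036, 296 and 917 FPKM in exposed and 183, 285 and 361.8 FPKM in control berries at EL33, so that exposed sample 2 lay among the controls and exposed samples 1 and 3 far above them. Thaumatin Vv04s0023g03550 was at 18.1, 7.01 and 14.9 FPKM in exposed and 6.06, 6.62 and 6.13 FPKM in control berries at EL33. The flavodoxin-like quinone reductase Vv00s0271g00110 was at 14.0, 4.33 and 15.3 FPKM in exposed and 2.24, 4.15 and 4.30 FPKM in control berries at EL33. Exposed sample 2 was the lowest of the exposed samples in 16 of the 22 genes. Exposed samples 1, 2 and 3 were above every control in 20, 12 and 19 of the 22. How often this held over all genes was not computed, so these counts cannot be judged against a background. At EL33 the summed level of the 14 ripening flesh markers was 3407, 1657 and 3360 FPKM in exposed and 1450.5, 1581 and 1843 FPKM in control berries. Without EXPA8, which is also 1 of the 22, it was 2370, 1361 and 2443 FPKM in exposed and 1268, 1295 and 1481 FPKM in control berries. Exposed sample 2 was the lowest exposed sample in either sum. The part of the marker level in the values of the 22 genes was not tested. In 17 of the 22 genes the level averaged over both treatments rose between EL33 and EL34, as did 40.4% of the 136 and 28.2% of all genes tested.

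The course of the 136 genes over the earlier stages, averaged over exposed and control berries, was not part of the rule. It was tested with the same limma fit, which took samples of different stages as independent. Whether samples with the same number ending deviated together between stages was not tested. If panels were sampled repeatedly, the adjusted p-values between stages are less certain than they appear. Between EL31 and EL33, 26 of the 136 genes rose (19.1%, against 17.5% of all genes tested) and 47 fell (34.6%, against 27.7%), together 53.7% against 45.2% of all genes. With quantile normalization, which moved the median log2 difference of all genes at this step to 0.11, against -0.06 without it, 37 rose (27.2%, against 31.7% of all genes) and 40 fell (29.4%, against 20.9%). Between EL33 and EL34, 55 rose (40.4%, against 28.2%) and 35 fell (25.7%, against 28.7%), together 66.2% against 56.9% of all genes. The share of genes that rose at véraison was thus above the background, also with quantile normalization (41.2% against 28.8%). The 2 shares are not like for like. The background genes needed only 1 FPKM in 1 group, whereas the 136 had to reach 3 FPKM in ripe controls. In 15 of the 136 both group means were below 1 FPKM at all 3 earlier stages. Among the 10 PR genes, 6 rose between EL33 and EL34, against 23 of the 44 other PR genes, and 1 fell, against 8 of the 44. The largest of these 6 were PR-4, with a log2 difference of 3.94 (standard error 0.84, adjusted p = 0.000587), thaumatin SCUTL1, with 3.77 (standard error 0.20, adjusted p = 1.15e-10), and thaumatin Vv04s0023g03550, with 3.64 (standard error 0.20, adjusted p = 1.96e-10). Osmotin rose by 3.42 on the log2 scale (adjusted p = 3.26e-07) and the beta-1,3-glucanase by 2.05 (adjusted p = 9.23e-06). The thaumatin Vv02s0025g04270 fell by 1.69 (adjusted p = 0.0036) before its high level in ripe controls.

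Of the 4 cell wall genes, 3 rose between EL33 and EL34, as did 31 of the 53 other cell wall genes tested. EXPA8 rose at both steps, by 3.74 on the log2 scale between EL31 and EL33 (standard error 0.26, adjusted p = 2.19e-09) and by 3.28 between EL33 and EL34 (standard error 0.26, adjusted p = 8.17e-09). The pectate lyase fell at both steps. The largest rises at véraison over the 136 genes were those of Vv15s0046g01360 (log2 difference 4.61, standard error 0.59), the quinone reductase (3.96, standard error 0.27) and PR-4. The largest falls at véraison were in Vv01s0011g03360, Vv18s0001g15220 and the tropinone reductase Vv06s0004g05330, an enzyme of the short-chain dehydrogenase family, with log2 differences of -4.05, -2.49 and -2.23. Between EL31 and EL33 the largest falls were in Vv18s0166g00250 (-5.63), Vv14s0108g01020 (-5.03) and Vv13s0084g00130 (-3.85), and after EXPA8 the largest rises were in Vv18s0001g15220 (2.30) and Vv00s0187g00050 (2.15). All of these had an adjusted p of at most 0.05.

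**Figure D4:**
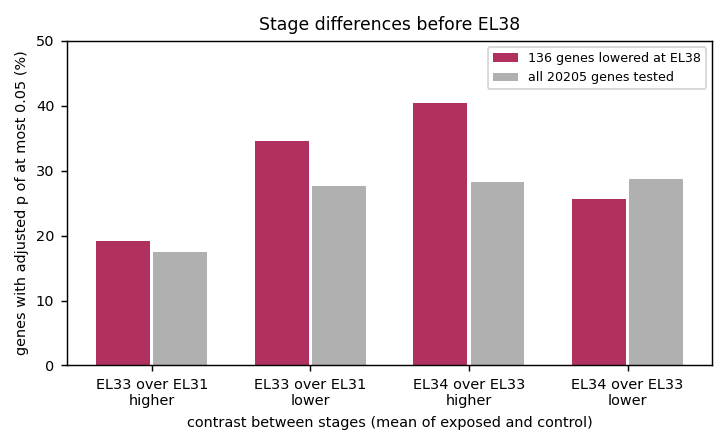
Percent of genes (y axis) with an adjusted p of at most 0.05 in each direction between successive stages before EL38 (x axis), averaged over exposed and control berries, for the 136 genes (left bar of each pair) and all 20205 genes tested (right bar). The pair furthest apart is that of genes higher at EL34 than at EL33, 40.4% of the 136 against 28.2% of all genes.

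Between véraison and harvest the 136 genes did not share 1 time course. In control berries 69 were at least 2 times higher at EL38 than at EL34 (12.6% of all genes tested were), 34 were at most 0.5 times the EL34 level (18.1%) and 33 lay between. In exposed berries 46 were at least 2 times higher (13.9%) and 63 at most 0.5 times (20.6%). All 46 were among the 69. Of the other 23 of these 69 genes, 20 changed less than 2-fold in exposed berries and 3 were at most 0.5 times the EL34 level. Over the 69 genes the EL38 level was 3.05 times the EL34 level in exposed and 14.6 times in control berries (medians). All 34 genes that were lower in controls were at most 0.5 times the EL34 level in exposed berries too, with median ratios of 0.067 in exposed and 0.221 in control berries. Among the 33 genes between, 26 were at most 0.5 times in exposed berries. These changes end at EL38, where the rule fixed the order of the groups, and have no test. The rule set at most 0.4 times the control mean at EL38 and above 0.6 times at EL34. By construction, the ratio of EL38 to EL34 was therefore lower in exposed than in control berries in every gene. That all 46 were among the 69, that all 34 were low in both groups and the order of the medians follow from the rule. The rule also favoured genes that were high in controls and low in exposed berries at EL38. The counts of the 136 genes and the shares of all genes tested are therefore not like for like.

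The classes differed in their annotated genes. Of the 10 PR genes 8 were among the 69, with both dirigent genes and 3 of the 4 redox genes, while 3 of the 4 cell wall genes were among the 34. PR-4 showed the difference between treatments in direction, at 0.743 times its EL34 level in exposed and 4.61 times in control berries. Osmotin was at 7.21 times its EL34 level in exposed and 70.1 times in control berries. The auxin-induced protein 22D gene Vv05s0020g04680 and the photoassimilate-responsive gene Vv08s0007g01560, both also among the 69 and named after their values were seen, averaged 36.8 and 56.3 FPKM in exposed and 116 and 165 FPKM in control ripe berries. Among the 34, 2 further genes were named after their values were seen. An acid phosphatase (Vv07s0005g04130) was at 1.86, 2.0 and 0.591 FPKM in exposed and 6.63 and 7.70 FPKM in control ripe berries after 340 to 403 FPKM in exposed and 351 to 434 FPKM in control berries at véraison. The non-symbiotic hemoglobin 2 gene (Vv03s0063g01970), whose product binds oxygen and nitric oxide, was at 1.16, 1.53 and 1.21 FPKM in exposed and 4.79 and 6.38 FPKM in control ripe berries. In exposed berries the highest stage was EL38 for 45 of the 136 genes (33.4% of all genes tested), EL34 for 40 (17.2%), EL31 for 40 (37.6%) and EL33 for 11 (11.7%). In controls it was EL38 for 73 genes (32.9%), EL34 for 27 (16.4%), EL31 for 27 (34.2%) and EL33 for 9 (16.5%). Since the rule chose the 136 genes by their levels at EL38, these counts are not like for like with the shares of all genes.

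**Figure D5:**
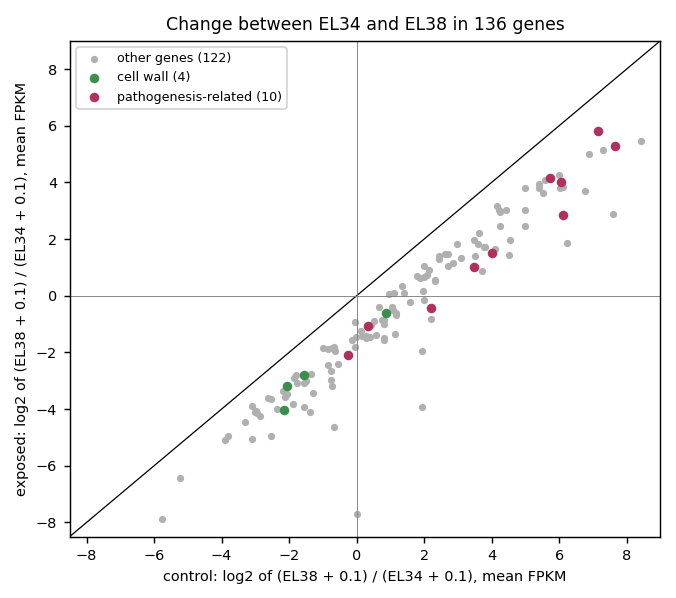
Change between EL34 and EL38 in exposed (y axis) and control berries (x axis), as the log2 ratio of mean FPKM plus 0.1, for the 136 genes. The 10 PR genes (dark red) lie mostly at the upper right and 3 of the 4 cell wall genes (green) at the lower left. All points lie under the line of equal change (black), as the rule requires.

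Members of the set lay beside each other in places. Apart from the PR-10 run there were 2 further runs of at least 3 genes whose locus numbers lay within 200 of each other, and 12 pairs. In the run of Vv16s0050g01690, Vv16s0050g01780, Vv16s0050g01890, the kinase Vv16s0050g01900 and Vv16s0050g01910, the most abundant gene was Vv16s0050g01890, at 29.5, 10.6 and 8.50 FPKM in exposed and 54.5 and 72.6 FPKM in control ripe berries. Exposed sample 1 was the highest exposed sample in all 5 genes. In the run of Vv18s0001g15120, the WD40 repeat gene Vv18s0001g15130 and Vv18s0001g15220, Vv18s0001g15130 was at 18, 7.71 and 8.56 FPKM in exposed and 36.8 and 37.4 FPKM in control ripe berries. At the earlier stages Vv18s0001g15130 was higher in exposed berries, at 8.49, 6.42 and 5.17 FPKM in exposed and 1.20, 1.41 and 3.34 FPKM in control berries at EL33, with no overlap between the groups at any of the 3 stages.

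Whether these genes differ with the range of the sample number was tested in the 18 samples of EL31, EL33 and EL34, which the condition at EL38 did not use. With limma, 0 of the 136 genes and 0% of all genes tested differed between the sixties and the fifties at an adjusted p of at most 0.05. At an unadjusted p of at most 0.05 there were 17 of the 136 and 3952 of all 20205 genes. Both are shares above 0.05, so the lack of adjusted calls does not show equal levels in the 2 ranges. Exposed sample 1 was the highest exposed sample in 52.2% of the 136 genes at EL31, 35.3% at EL33 and 31.6% at EL34, against 49.5%, 46.2% and 28.5% of all genes tested.

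The 87 genes that met the condition at EL38 but were also lower, or had a mean of 0 in both groups, at an earlier stage were tested between stages in the same way. Between EL33 and EL34, 23 of the 87 rose (26.4%) and 9 fell, together 36.8%. Of the 136, 55 rose (40.4%) and 35 fell (25.7%), together 66.2%, and of all genes tested 28.2% rose and 28.7% fell, together 56.9%. Between EL31 and EL33, 5 of the 87 rose (5.75%) and 23 fell (26.4%), together 32.2%. Of the 136, 26 rose (19.1%) and 47 fell (34.6%), and of all genes tested 17.5% rose and 27.7% fell. The difference between the sets was not tested. In 24 of the 87 the control mean was 0 at an earlier stage, so these shares are not like for like. PR-1 genes, the classic marker of salicylic acid responses, were in this group. Vv03s0088g00710, named after its values were seen, averaged 104 FPKM in exposed and 633 FPKM in control ripe berries. It was left out of the 136 by its means at EL31, 0.365 FPKM in exposed and 0.860 FPKM in control berries, and was listed at 0 in 1 or more samples at each earlier stage, so this ratio rests on values near 0.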

How the data were processed

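Poly(A) RNA of whole berries, with the seeds taken out, was sequenced on an Illumina HiSeq instrument. The authors aligned reads to the V1 grapevine genome with TopHat 2.0 and computed the deposited FPKM values with Cufflinks 2.0, after CASAVA 1.8.2 per the labels' processing notes. Read counts were not used here. The labels name the véraison stage EL34.

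The rule was applied to the FPKM as deposited. All tests were run on the log2 of FPKM with a pseudocount of 0.1, a scale that understates changes of low genes, by limma (version 3.58.1, R 4.3.3) with 8 group means in 1 model, eBayes with a trend and Benjamini-Hochberg adjustment per contrast. Genes averaging at least 1 FPKM in 1 group or more were tested (20205 of 29970), and the scripts were tested on simulated data. Counting error is not known from FPKM, and precision rests on the spread between panels. Tables and figures were made with Python 3.11.15, numpy 2.4.6, pandas 2.3.3 and matplotlib 3.10.9.

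The genes, lists and tests were chosen with earlier results of these data known. Named genes were the 12 with the lowest ratio at EL38 among those with a control mean of at least 10 FPKM, up to 4 per list (8 for PR genes and salicylic acid linked regulators) with the highest control mean, the 3 on either side of the ratio of 0.4, the 3 largest changes per stage test and direction, and runs of at least 3 neighbours. Genes named outside this rule are marked in the text as chosen otherwise. Alternatives were pseudocounts of 0.5 and 1, no filter, other scalings, no trend, replicate and number-range blocks, other limits in the rule and leaving out each sample. Annotations came from the study's gene tables, of which 1 is held only in part. Sequences and promoters were not analysed here, since the reference table at hand matched none of the locus identifiers.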

Additional observations from a re-analysis of the deposited data

How the results depend on the processing

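The number of genes chosen depended on the limits of the rule. It was 48 with a ratio of at most 0.3 at EL38, 274 with at most 0.5, 222 with controls of at least 1 FPKM and 75 with a ratio above 0.8 at the earlier stages. Leaving out 1 EL38 sample gave 117 to 210 genes, the highest without exposed sample 1, and median-of-ratios scaling gave 131 genes, 128 of them the same.

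Over the total number of calls the stage tests stayed within 1.5 times. Genes called between EL31 and EL33 numbered 73, and 68 to 78 over 23 fits that each left out 1 sample. Genes called between EL33 and EL34 numbered 90, and 81 to 93 over such fits. Over the 8 other alternatives the counts were 70 to 77 and 82 to 91. Quantile normalization changed the split between EL31 and EL33, with 37 genes higher and 40 lower against 26 and 47, and 66 of its 77 calls were among the 73. The 12 changes between stages that are named for their size kept direction and call in all 372 values under these alternatives.

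Same-numbered exposed and control samples deviated together weakly at most (correlations of -0.025 to 0.149), and not every sample correlated best with its own number. The numbers were not taken as pairs. With the replicate block 77 of the 136 genes differed between EL31 and EL33 (56.6%, against 50.4% of all genes) and 88 between EL33 and EL34 (64.7%, against 60.8%). Over all genes the block raised the calls of exposed against control to 1232 at EL33 and 1088 at EL34, against 706 and 673 without it, and moved those at EL31 and EL38 by less than 1.5 times. The test of the sample-number range gave 0 of the 136 genes under every alternative run. Over all genes it gave 448 (2.22%) without EL34 control replicate 2.

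With 2 controls at EL38, the order of the groups rests on 5 samples. Genes of low FPKM are the least certain, since the depth behind single values is not known.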
